A study of Mus musculus with 17 samples.

Results

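The ADAM22 family and its LGI ligands were followed in bulk medial prefrontal cortex and in single nuclei of the neocortex of chronically stressed mice. The 7 genes are Adam11, Adam22 and Adam23, which encode the receptors, and Lgi1, Lgi2, Lgi3 and Lgi4, which encode the ligands. They were chosen by name, out of 36293 genes listed in the bulk tables and 37608 in the nuclei tables, and all 7 were found in both. The choice was made with earlier results of these same libraries known, among them the bulk difference of Adam23. The bulk values of these 7 genes are therefore given as a description, with no test read from them, and the tests on nuclei are not independent support for a pattern that was already seen.

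ADAM11, ADAM22 and ADAM23 are membrane proteins of the disintegrin and metalloprotease family that have lost their protease activity and work as receptors. LGI proteins are secreted and bind them across the synaptic cleft, where ADAM22 is tied to the PSD-95 scaffold of the postsynaptic density and ADAM23 is found mainly on the presynaptic side. The LGI1 complex helps to set AMPA receptor content and the placing of Kv1 potassium channels. Inherited loss of LGI1 causes a form of lateral temporal lobe epilepsy, and antibodies against it cause limbic encephalitis.

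Male mice, labelled C57BL/6 and given as C57BL/6J in the study's methods, entered the experiment at 9 to 10 weeks of age and were either handled gently (controls) or given 12 days of chronic unpredictable stress (CUS) with 3 stressors a day. Nuclear RNA was sequenced in bulk from medial prefrontal cortex (mPFC) punches of 4 control and 5 CUS mice at postnatal day 90, after behavioral testing. Single nuclei were profiled by sNucDrop-seq, a droplet method that counts unique molecular identifiers (UMIs), in the neocortex of another 4 control and 4 CUS mice at postnatal day 80. All mice were wild type, controls and CUS mice were kept in separate rooms, and the study processed the nuclei in batches that the labels do not assign to mice, so that batch could not be fitted.

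The bulk libraries held 26188825 to 30525015 counted reads. Of 40000 deposited barcodes, 26698 nuclei were kept, with a median of 2010 UMIs and 1274 genes, and they formed 26 classes of over 200 nuclei. Of these, 15 carried enough of their markers to be called by a cell type name and 11 are called by number and leading gene. The kept nuclei included 1795 of a Striatal-like class led by Drd1 or Drd2, outside the labelled neocortex. Libraries shared 20 barcodes among the kept nuclei. Pairs of mice within a group differed by more than counting noise (chi-square over its degrees of freedom was 2.88 to 24.4 for bulk pairs and 2.67 to 13.8 for nuclei pairs), and each mouse counted as 1 sample.

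Adam23 (ENSMUSG00000025964) lies on chromosome 1, 63445891 to 63596276 in mm10, on the plus strand. Adam22 (ENSMUSG00000040537) lies on chromosome 5, 8072352 to 8368160, on the minus strand. Both are protein-coding, and each start site has a stretch of promoter in RefSeq (GRCm38.p6) that lies wholly outside the annotated gene. The 250 bases upstream of each start are shown because the values below turn mainly on Adam23, and Adam22 is the receptor most often set beside it. Capitals mark CG dinucleotides, and both are written 5′ to 3′ on the strand of the gene.
Adam23, chr1:63445641-63445890: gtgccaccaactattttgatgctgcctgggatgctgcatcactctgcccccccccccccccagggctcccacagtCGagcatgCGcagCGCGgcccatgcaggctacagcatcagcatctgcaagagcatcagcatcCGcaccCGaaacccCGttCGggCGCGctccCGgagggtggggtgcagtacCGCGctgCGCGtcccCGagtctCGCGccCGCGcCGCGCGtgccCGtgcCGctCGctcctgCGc
Adam22, chr5:8368161-8368410: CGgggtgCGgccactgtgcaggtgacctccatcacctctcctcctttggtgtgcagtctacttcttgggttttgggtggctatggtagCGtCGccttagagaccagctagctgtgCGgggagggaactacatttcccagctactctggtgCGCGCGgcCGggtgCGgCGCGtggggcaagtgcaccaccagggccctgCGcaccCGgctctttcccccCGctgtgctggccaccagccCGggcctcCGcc

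The Adam23 stretch held 27 CG dinucleotides and 70.4% G or C. The Adam22 stretch held 17 and 66.8%, against medians of 6 and 52.4% over 32851 promoters of the same length. On either strand, neither stretch held the GC box GGGCGG (found in 32.7% of all promoters), the cAMP response element TGACGTCA (1.55%) or its short form TGACG (17.8%), the TATA box TATAAA (12.4%), or the palindromic glucocorticoid response element (0.00913%) or its short form (0.387%). These counts describe the letters in this window alone. Promoters were matched for 4 of the 7 genes, the other two being Lgi1 and Lgi2, and no entry was found for Adam11, Lgi3 and Lgi4.

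The first question was how the receptors stood in bulk mPFC nuclei. Levels are given for each mouse in CPM, that is, reads of the gene per 1e6 of all counted reads, scaled between mice by edgeR's TMM factors. Adam23 stood at 311, 269.8, 242 and 234 CPM in the 4 control mice and at 217, 214, 224, 202 and 195 CPM in the 5 CUS mice. Every CUS mouse was below every control mouse, and the group means were 264 ± 34.7 CPM (SD, n = 4) and 210.3 ± 11.9 CPM (SD, n = 5). The fitted log2 fold change was -0.33 (SE 0.08), or 0.796 of the control level. Control replicate 1 was the highest control mouse, and without it the log2 fold change was -0.25. The labels name no litters or cages, so errors here measure the spread between these mice.

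Adam22, the receptor that anchors to PSD-95, stood at 499.7, 456, 454 and 439 CPM in control mice and at 445, 472, 472, 445 and 437 CPM in CUS mice. The groups overlapped, and the log2 fold change was -0.02 (SE 0.06). Adam11, a receptor known from the terminals of cerebellar basket cells, stood at 30.4, 32.3, 43.0 and 29.8 CPM in control mice and at 40.8, 35.3, 34.9, 38.4 and 41.8 CPM in CUS mice. Its groups overlapped too, with a log2 fold change of 0.18 (SE 0.10) that ran from 0.13, leaving out control replicate 1, to 0.30, leaving out control replicate 3. No difference between the receptors was tested.

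**Figure D1:**
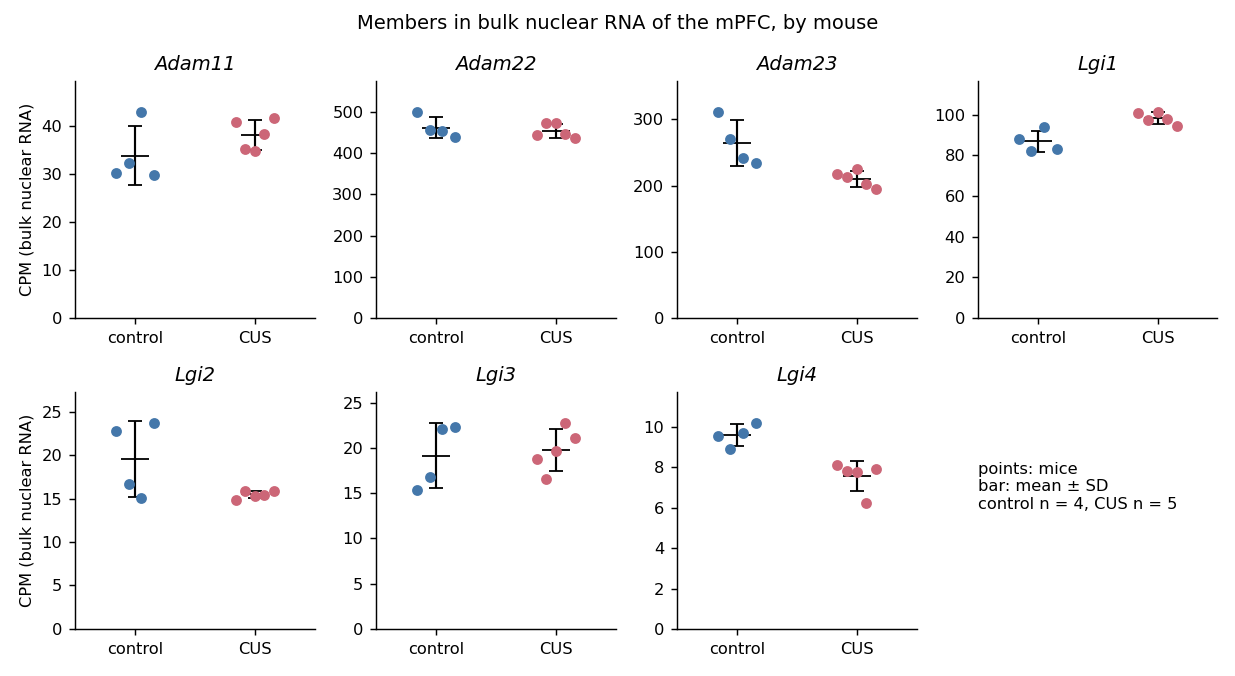
Level of the 7 genes in bulk nuclear RNA of the mPFC, in CPM on a linear axis from 0, with 1 point for each mouse and bars for the mean ± SD of 4 control and 5 CUS mice. CUS mice lie wholly below control mice for Adam23 (195 to 224 against 234 to 311 CPM) and Lgi4, and wholly above them for Lgi1.

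Among the ligands, Lgi1, the founding member of the family, stood at 87.9, 82.2, 93.9 and 83.1 CPM in control mice and at 101, 97.3, 101, 97.9 and 94.4 CPM in CUS mice. The groups did not overlap, although the nearest mice were 93.9 and 94.4 CPM, and the log2 fold change was 0.18 (SE 0.05). Lgi2, whose loss causes a juvenile epilepsy in dogs, stood at 22.8, 16.7, 15.0 and 23.7 CPM in control mice and at 14.8, 15.9, 15.3, 15.4 and 15.9 CPM in CUS mice. Control mice fell into a higher and a lower pair, and the lower pair overlapped the CUS mice, with a log2 fold change of -0.34 (SE 0.12) that ran from -0.45, leaving out control replicate 3, to -0.22, leaving out control replicate 4.

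Lgi3 stood at 15.4, 16.8, 22.1 and 22.2 CPM in control mice and at 18.8, 16.6, 19.6, 22.8 and 21.1 CPM in CUS mice, with overlapping groups and a log2 fold change of 0.05 (SE 0.12). Lgi4, which Schwann cells secrete and which they need to myelinate peripheral nerve, stood at 9.54, 8.93, 9.70 and 10.2 CPM in control mice and at 8.13, 7.80, 7.77, 6.26 and 7.91 CPM in CUS mice. All CUS mice were below all control mice, and the log2 fold change was -0.34 (SE 0.09), from 189 to 311 reads a mouse. In all, 3 of the 7 genes had groups that did not overlap, beside 8.76% of the 18394 genes tested. Because the genes were chosen with this contrast known, nothing is read from this count.

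In bulk tissue, fewer cells of a type and less RNA per cell cannot be told apart. The summed level of 7 astrocyte markers, astrocytes being the nuclei in which Lgi4 was highest, was 2141 to 2580.2 CPM in control and 1969 to 2327 CPM in CUS mice, with 2 of 7 markers lower at an edgeR false discovery rate of 0.05. The summed level of 6 layer 4 markers was 614 to 769 CPM in control and 458 to 650.2 CPM in CUS mice, with 1 of 6 lower. The summed level of 8 striatal markers, from the nuclei in which Adam23 was highest, did not overlap between the groups. It was 651 to 1041 CPM in control and 1138 to 1376 CPM in CUS mice. Of the 8, 1 passed the threshold and was higher, although their median log2 fold change was -0.83. The summed level of 6 oligodendrocyte precursor (OPC) markers did not overlap between the groups, at 497 to 603 CPM in control and 389.7 to 464 CPM in CUS mice, with 2 of 6 lower. That of 5 markers of newly formed oligodendrocytes (Oligo_Enpp6) was 133 to 162 CPM in control and 118 to 138 CPM in CUS mice, with 2 of 5 lower. That of 6 general excitatory markers was 1346 to 1984 CPM in control and 1746 to 1864 CPM in CUS mice, with 1 of 6 higher. Lgi3 was highest in mature oligodendrocyte nuclei, whose 7 markers summed to 294 to 696 CPM in control and 309 to 392 CPM in CUS mice. Of these 7, 1 was lower. Lgi2 was highest in parvalbumin interneuron nuclei, whose 6 markers summed to 1421 to 1539 CPM in control and 1337 to 1559 CPM in CUS mice. Of these 6, 0 passed. Of all 18394 genes tested in bulk, 3.29% passed the same threshold in either direction. The part of these cell types in the bulk values was not tested.

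Single nuclei gave the level of each gene by class. Levels by class are CPM of the UMIs summed over the nuclei of a class in each mouse, that is, per 1e6 of all UMIs of that class, with TMM scaling between mice. They are given as mean ± SD over all 8 mice and are a description, since the classes were made from the same counts. Free RNA in droplets gives UMIs in nuclei that do not express a gene, and the 7 astrocyte markers summed to 427 to 577 CPM within Ex_L2/3-like nuclei, beside 17935 to 21458 CPM within Astro-like nuclei. Low levels in a class, such as those of Lgi4 outside Astro-like nuclei, can hold UMIs of free RNA and are not read as expression. These Lgi4 levels were uneven, at 6.61 ± 2.18 CPM in Ex_L2/3-like and 0.667 ± 1.28 CPM in Inh_Pv-like nuclei. The part of free RNA in them was not tested. The receptors were spread widely. Adam23 was highest in Striatal-like nuclei at 419.7 ± 64.2 CPM, followed by Ex_L5-like (layer 5 excitatory) nuclei at 327 ± 68.4 CPM, cluster 12 (Scn7a) at 315 ± 59.4 CPM and Astro-like nuclei at 297 ± 50.02 CPM. It was lowest in Oligo_Opalin-like nuclei (mature oligodendrocytes) at 87.1 ± 47.9 CPM. Across the order of 26 classes, none of the 25 neighbouring pairs differed by more than the sum of their SDs, so the order is fixed only over longer distances.

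Adam22 was highest in Claustrum-like nuclei at 472 ± 108 CPM and Inh_Ndnf-like interneurons at 357 ± 93.5 CPM, and lowest in Astro-like nuclei at 81.2 ± 30.4 CPM. Astro-like nuclei were thus at the bottom of the order for Adam22, and above the median class (235 CPM) for Adam23. Adam11 was highest in cluster 16 (Ctgf) at 57.9 ± 15.7 CPM and cluster 9 (Cpne7) at 57.7 ± 8.43 CPM, and lowest in Oligo_Opalin-like nuclei at 5.00 ± 9.86 CPM. For neither gene did any neighbouring pair of classes differ beyond the sum of their SDs.

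For each of Lgi2, Lgi3 and Lgi4, the gap between the highest class and the next was larger than the sum of their SDs. Lgi4 was highest in Astro-like nuclei at 133 ± 36.4 CPM and next in cluster 19 (Tshz2) at 18.0 ± 18.9 CPM. Astro-like nuclei held 48.6% of the Lgi4 UMIs in these classes and 2.38% of all UMIs. Lgi3 was highest in Oligo_Opalin-like nuclei at 368 ± 90.7 CPM and next in Ex_L5-like nuclei at 74.2 ± 9.67 CPM, and Oligo_Opalin-like nuclei held 10.6% of its UMIs and 1.23% of all UMIs.

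Lgi2 was highest in Inh_Pv-like nuclei, the parvalbumin interneurons, at 242 ± 23.2 CPM, with Inh_Ndnf-like nuclei (159 ± 50.3 CPM) and cluster 19 (Tshz2) (150.1 ± 56.3 CPM) next. Inh_Pv-like nuclei held 17.6% of its UMIs and 4.32% of all UMIs. Lgi1 was broad, with the highest levels in Inh_Ndnf-like nuclei (329.6 ± 48.8 CPM), cluster 9 (Cpne7) (319 ± 37.0 CPM) and Ex_L4-like nuclei (277 ± 34.2 CPM), which did not differ beyond their SDs. It was lowest in Oligo_Opalin-like nuclei (26.8 ± 21.1 CPM), apart from the next class, OPC-like nuclei (81.9 ± 18.0 CPM). Claustrum-like nuclei, first for Adam22, were among the lowest for Lgi1 at 88.3 ± 25.5 CPM.

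**Figure D2:**
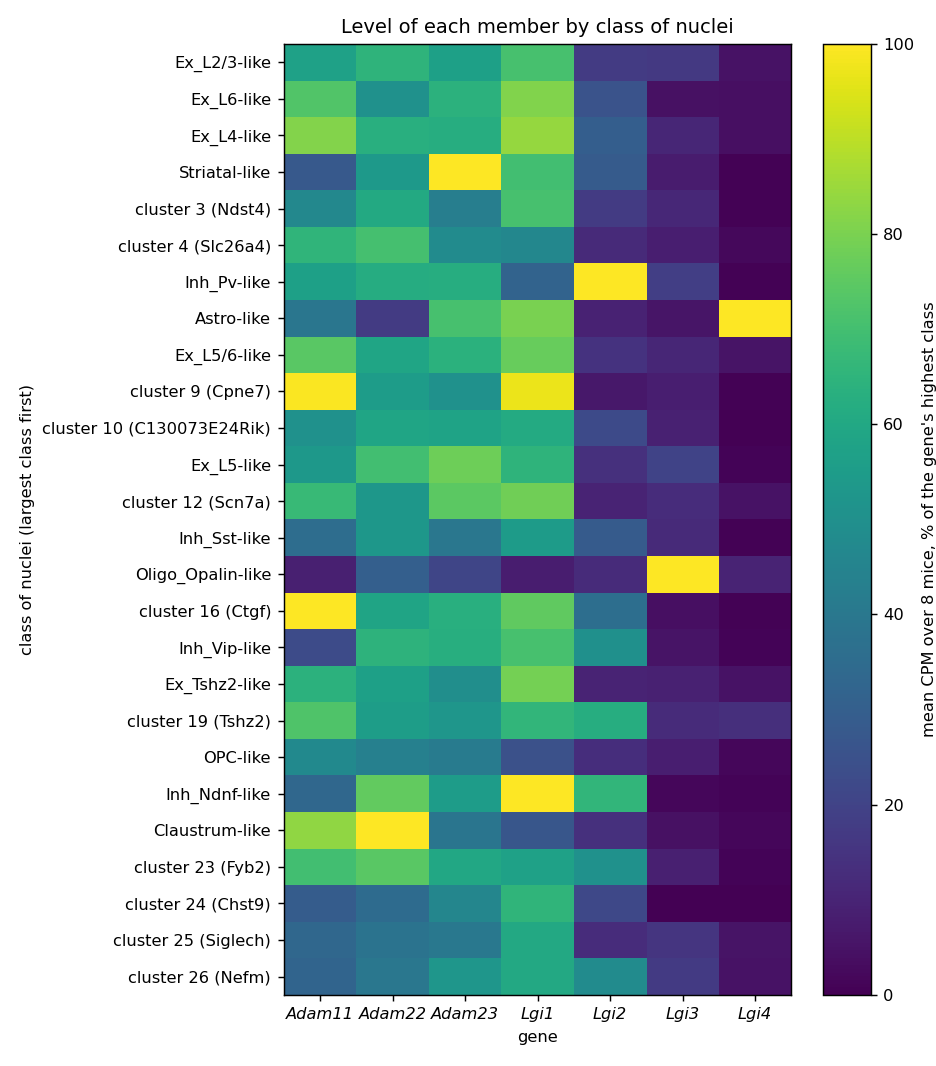
Mean level over 8 mice of each gene (columns) in 26 classes of nuclei (rows, largest class first), coloured as percent of the gene's highest class. The receptors and Lgi1 are spread over most classes, Lgi3 and Lgi4 peak in a single class each (Oligo_Opalin-like and Astro-like nuclei), and Lgi2 is highest in Inh_Pv-like nuclei with Inh_Ndnf-like nuclei and cluster 19 (Tshz2) next.

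Genes of like pattern were listed by Pearson's r of log2(CPM + 1) over the 26 classes, among 14869 other genes, with no test, as the classes come from the same 8 libraries. A gene needed only 10 CPM in at least 1 class, so genes with few UMIs can enter these lists. Lgi4 was closest to Fxyd1 (r = 0.888), Gm13872 (0.813) and Paqr8 (0.811), all highest in Astro-like nuclei. Lgi3 was closest to Scd3 (0.803), Pkmyt1 (0.773) and Pigz (0.720), all highest in Oligo_Opalin-like nuclei. Lgi2 was closest to Ccdc91 (0.748), Scrt1 (0.719) and Rpp25 (0.704). For Lgi1 the closest genes were AC117232.1 (0.810), Acta1 (0.805) and Setd1b (0.798).

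For Adam22 they were Gpr61 (0.875), Jag2 (0.872) and Fbxl2 (0.870), and for Adam11 Trpm4 (0.807), Strbp (0.795) and Kcnma1 (0.776). Adam23 was closest to Gm10548 (0.735), Prelid3a (0.734) and Lgi1 (0.71). A ligand thus stood among the 3 genes most like Adam23 over classes, whereas Adam22 and Lgi1 had r = 0.123 and Adam22 and Adam23 r = 0.156. Oligo_Opalin-like nuclei were the lowest class for both Adam23 (87.1 CPM) and Lgi1 (26.8 CPM). How far their r of 0.71 rests on that class was not tested. Adam22 and Lgi4 had r = -0.579.

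The next question was how CUS and control mice differed in the nuclei, with all nuclei of a mouse summed first. Adam23 stood at 284, 275, 280.1 and 273 CPM in control mice and at 187, 248, 235 and 229 CPM in CUS mice. The groups did not overlap, and the log2 fold change was -0.31 (SE 0.10, adjusted p = 0.596 by edgeR's quasi-likelihood test). Lgi3 stood at 38.1, 43.9, 38.6 and 36.3 CPM in control and at 50.1, 42.9, 53.3 and 54.3 CPM in CUS mice, with overlapping groups and a log2 fold change of 0.35 (SE 0.11, edgeR adjusted p = 0.596). Lgi2 was 63.1 to 65.1 CPM in control and 52.2 to 58.8 CPM in CUS mice, with a log2 fold change of -0.20 (SE 0.08, edgeR adjusted p = 0.596).

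Other measures of these libraries differed by group as well. Over all nuclei the summed levels of 5 choroid plexus markers (13.5 to 21.4 CPM in control, 25.2 to 259.6 CPM in CUS mice), 6 Inh_Sst markers (456 to 493 and 499 to 588 CPM) and 6 Inh_Ndnf markers (399.8 to 444 and 447 to 503 CPM) did not overlap. The Inh_Sst and Inh_Ndnf lists share Reln and Npy. The share of nuclei removed as likely doublets was 12.7 to 14.6% in control and 15.7 to 18.2% in CUS mice. Of the Adam23 UMIs over all nuclei, Striatal-like nuclei held 236 of 1728, 384 of 3322, 427 of 3563 and 166 of 1254 in control mice. In CUS mice they held 98 of 1470, 190 of 1406, 111 of 1655 and 113 of 2552. The part of these measures in the nuclei values was not tested.

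Over all nuclei, 5 genes had enough UMIs to be tested. None passed the threshold of 0.2 with edgeR's quasi-likelihood test, beside 0.0199% of all 5018 genes. None passed with edgeR's likelihood ratio test or with DESeq2 either. An unadjusted quasi-likelihood p under 0.05 was found for 3 of the 5, beside 402 of the 5018. Groups did not overlap for 2 of the 5, beside 4.80% of the 5018. The other tested members were Adam22 with a log2 fold change of -0.11 (SE 0.09) and Lgi1 with 0.08 (SE 0.09). Leaving out 1 mouse gave -0.15 (CUS replicate 2) to -0.054 (CUS replicate 1) for Adam22, also -0.074 for control replicate 2. For Lgi1 it gave 0.050 (control replicate 3) to 0.14 (control replicate 4), also 0.052 for CUS replicate 2. Adam11 and Lgi4 were under the filter of 10% as many UMIs as nuclei, so their differences were not tested. Adam11 stood at 31.2, 27.7, 32.5 and 33.5 CPM in control mice and at 40.1, 36.5, 38.7 and 38.8 CPM in CUS mice, without overlap. Lgi4 was 4.87 to 8.70 CPM in control and 5.10 to 12.5 CPM in CUS mice, with overlapping groups. Without CUS replicate 2, 2 of the 5 passed, Adam23 and Lgi3. No share of all genes past the threshold is given for that fit, so nothing is read from this count.

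Within Ex_L2/3-like nuclei (3709 nuclei, upper-layer excitatory neurons with Cux2 and Rasgrf2), Adam23 fell in CUS mice. Its level was 241, 286, 301 and 291 CPM in control mice and 169, 227, 187 and 199.98 CPM in CUS mice, and no CUS mouse reached a control mouse. The log2 fold change was -0.52 (SE 0.12, edgeR adjusted p = 0.0920), from 208 to 595 UMIs a mouse. Without a single mouse the adjusted p ran from 0.0129 (without CUS replicate 2) to 0.289 (without CUS replicate 4), and it stayed under 0.2 in 2 of 8 such fits. It did not pass without control replicate 2, 3 or 4 or CUS replicate 1, 3 or 4, while the log2 fold change stayed between -0.60 and -0.46.

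In the same nuclei, Lgi2 stood at 58.0, 51.0, 52.2 and 41.0 CPM in control mice and at 33.5, 33.6, 35.0 and 34.9 CPM in CUS mice. The groups did not overlap, but with a log2 fold change of -0.57 (SE 0.17) Lgi2 did not pass the threshold (edgeR adjusted p = 0.221). Lgi3 stood at 52.2, 54.5, 50.6 and 55.5 CPM in control mice and at 73.1, 61.8, 76.0 and 66.8 CPM in CUS mice, again without overlap, with a log2 fold change of 0.39 (SE 0.15, edgeR adjusted p = 0.326). Adam22 (-0.14, SE 0.12) and Lgi1 (-0.02, SE 0.12) had overlapping groups and differences near their errors, that of Adam22 being -0.057 leaving out CUS replicate 1, -0.080 leaving out control replicate 2 and -0.19 leaving out CUS replicate 2. In all, 1 of 5 tested members passed, beside 1.02% of the 5377 genes tested in this class, and 3 of 5 did not overlap, beside 5.47%.

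Ex_L4-like nuclei (2293 nuclei, with Rorb) gave the largest Adam23 difference among the tests that passed. Adam23 stood at 313, 332, 287 and 335 CPM in control mice and at 185, 236, 191 and 209 CPM in CUS mice, with 287 and 236 CPM in the nearest mice. It fell by 0.63 on the log2 scale (SE 0.14, edgeR adjusted p = 0.0537) and stayed under the threshold in 6 of 8 fits without a single mouse. The adjusted p was 0.202 without CUS replicate 3 and 0.233 without control replicate 2. Lgi2 stood at 68.7, 75.1, 86.1 and 119 CPM in control mice and at 50.6, 65.6, 57.5 and 56.2 CPM in CUS mice, without overlap and with a log2 fold change of -0.58 (SE 0.20, edgeR adjusted p = 0.374).

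Lgi1 had a log2 fold change of 0.26 (SE 0.13, edgeR adjusted p = 0.525) and Adam22 of 0.02 (SE 0.13) in Ex_L4-like nuclei. Of the 4 members tested there, 1 passed, beside 0.596% of 3858 genes, and 2 did not overlap, beside 5.00%. In both classes, then, Adam23 was the member that passed the threshold, and Lgi2 had a difference of like size with a larger error.

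Other measures moved with these groups. The summed level of 5 choroid plexus markers, genes of a tissue outside the cortex, was 2.29 to 8.29 CPM in control and 18.7 to 30.5 CPM in CUS mice within Ex_L2/3-like nuclei. Within Ex_L4-like nuclei it was 3.08 to 9.62 and 23.1 to 41.7 CPM. The summed striatal markers were 396 to 508 CPM in control and 519 to 834 CPM in CUS mice within Ex_L4-like nuclei, and 421 to 503 and 495 to 737 CPM within Ex_L2/3-like nuclei. The 6 layer 4 markers were 3680 to 4474 CPM in control and 2527 to 3601 CPM in CUS mice within Ex_L4-like nuclei. Mean depth was 2362 to 3352 UMIs per nucleus in control and 2406 to 2890.4 in CUS mice for Ex_L2/3-like nuclei. The marker sums within these classes had no TMM scaling between mice, unlike the levels of Adam23. The part of these measures in the Adam23 difference was not tested.

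**Figure D3:**
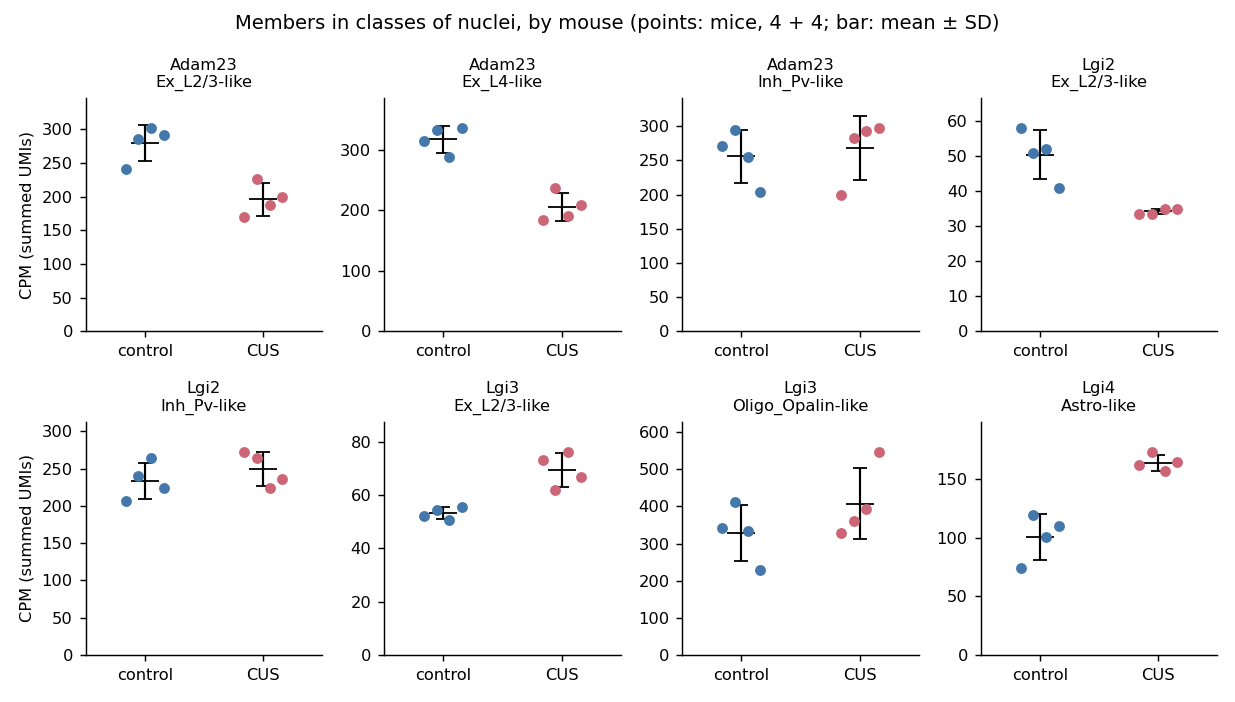
Level by mouse, in CPM of summed UMIs on a linear axis from 0, of 4 members in the classes named above each panel, with 1 point for each of 4 control and 4 CUS mice and bars for the mean ± SD. CUS mice lie below control mice for Adam23 and Lgi2 in Ex_L2/3-like nuclei and for Adam23 in Ex_L4-like nuclei, above them for Lgi3 in Ex_L2/3-like and Lgi4 in Astro-like nuclei, and among them in Inh_Pv-like and Oligo_Opalin-like nuclei.

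Across all 26 classes, 110 of the 182 pairs of a member and a class had enough UMIs to be tested, and 2 passed, both for Adam23. This was 1.82% of the member tests, beside 0.107% of all 121034 gene and class tests. With p-values adjusted over all classes together, neither passed (edgeR adjusted p = 0.234 in Ex_L4-like and 0.348 in Ex_L2/3-like nuclei). Adam23 had a negative log2 fold change in 23 of 26 classes, with a median of -0.21 and a range from -0.76 in Oligo_Opalin-like nuclei to 0.23 in cluster 26 (Nefm). Adam22 was negative in 23 of 26 (median -0.15), Lgi2 in 13 of 17 (median -0.16), Lgi1 in 6 of 24 (median 0.12), and Lgi3 in 0 of 9 (median 0.37). Adam11 was positive in all 7 classes that could be tested (median 0.25). The classes share the same 8 mice, so these counts do not multiply the evidence.

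**Figure D4:**
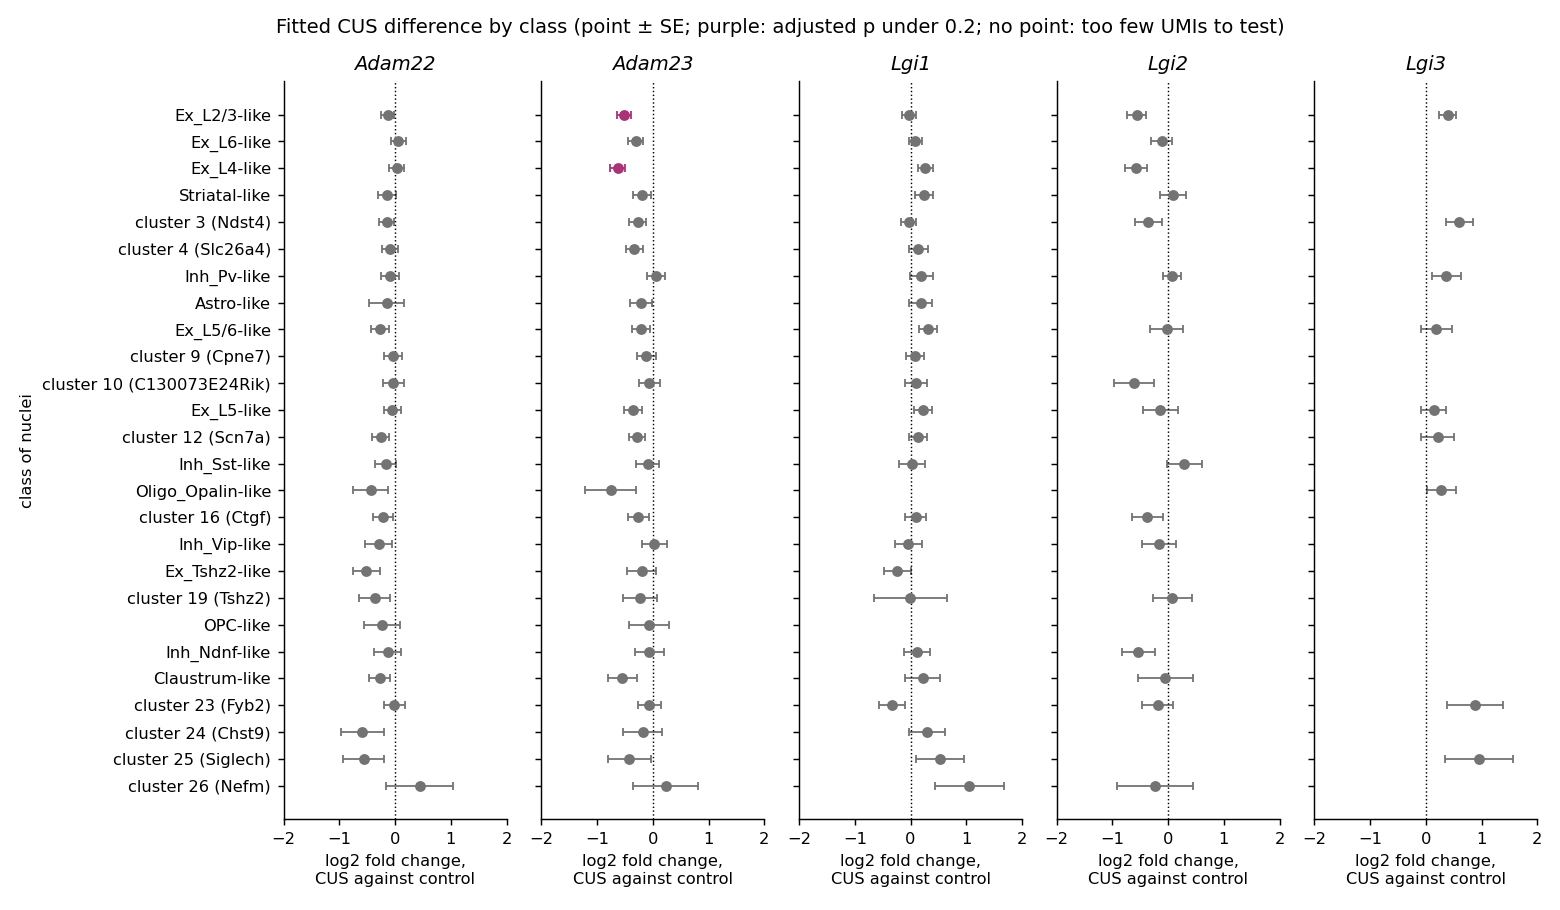
Fitted log2 fold change, CUS against control, ± SE for 5 members (panels) in 26 classes (rows), with purple points where the adjusted p was under 0.2 and no point where the UMIs were too few. Only Adam23 in Ex_L2/3-like (-0.52) and Ex_L4-like nuclei (-0.63) is purple, and Lgi3 lies right of 0 in its 9 tested classes.

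Parvalbumin interneurons, the class with the highest Lgi2, gave other values. Adam23 stood at 271, 294, 256 and 204 CPM in control mice and at 199, 283, 293 and 297 CPM in CUS mice of the Inh_Pv-like class, with overlapping groups and a log2 fold change of 0.05 (SE 0.16, edgeR adjusted p = 0.988). Lgi2 stood at 207, 239.9, 264 and 224 CPM in control and at 272, 265, 225 and 236 CPM in CUS mice (log2 fold change 0.07, SE 0.16, edgeR adjusted p = 0.972). The difference between classes was tested itself, as the CUS effect in Ex_L2/3-like nuclei minus that in each of the other 25 classes, with the mouse as a block.

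For Adam23 the CUS effect in Ex_L2/3-like nuclei was lower than in Inh_Pv-like nuclei by -0.57 on the log2 scale (SE 0.15, edgeR adjusted p = 0.150). This was the 1 pair of 97 tested over all members that passed, beside 0.102% of all such tests, and it passed in 2 of 8 fits without a single mouse. Each p was adjusted over the genes of 1 pair of classes, not over all pairs of classes. The edgeR adjusted p was 0.0548 without CUS replicate 1, 0.125 without control replicate 1, and from 0.236 (without CUS replicate 2) to 0.789 (without control replicate 3) without each of the others. For Lgi2 the same difference was -0.61 (SE 0.19, edgeR adjusted p = 0.384) and did not pass. Between Ex_L2/3-like and Ex_L4-like nuclei the Adam23 effects differed by 0.10 (SE 0.12, edgeR adjusted p = 0.936).

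The glial classes in which a ligand was highest were read in the same way. In Astro-like nuclei (1169 nuclei) Lgi4 stood at 73.7, 119, 101 and 109.9 CPM in control mice and at 162, 173, 157 and 165 CPM in CUS mice, from 7 to 57 UMIs a mouse. Every CUS mouse was above every control mouse. Groups did not overlap, in either direction, for 2.98% of the 2684 genes tested in this class. Lgi4 had a log2 fold change of 0.64 (SE 0.24) but did not pass (edgeR adjusted p = 0.561). The log2 fold change was 0.37 (edgeR adjusted p = 0.676) with no doublets removed, and 0.35 (edgeR adjusted p = 0.9997) with a higher minimum of genes per nucleus, a setting chosen after seeing the data. The direction was opposite to that of Lgi4 in bulk tissue. The 5 choroid plexus markers also did not overlap within these nuclei, at 6.52 to 29.3 CPM in control and 30.8 to 80.7 CPM in CUS mice, and their part in the Lgi4 values was not tested. Within these nuclei the 7 astrocyte markers summed to 19264 to 21458 CPM in control and 17935 to 21207 CPM in CUS mice. Neither of these marker sums had TMM scaling between mice.

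In Oligo_Opalin-like nuclei (616 nuclei) Lgi3 stood at 341, 412, 333 and 227 CPM in control mice and at 329.7, 361, 392 and 546 CPM in CUS mice, with overlapping groups and a log2 fold change of 0.28 (SE 0.26, edgeR adjusted p = 0.999). Adam23 in the Striatal-like class, where it was highest, stood at 441, 455, 413 and 479.6 CPM in control mice and at 272, 419, 417 and 462 CPM in CUS mice (log2 fold change -0.19, SE 0.16, edgeR adjusted p = 0.947). CUS replicate 1 was the lowest CUS mouse there and for Adam23 over all nuclei. It was also the lowest for Adam23 in Ex_L2/3-like, Ex_L4-like, Ex_L5-like, Ex_L6-like and Inh_Pv-like nuclei. In Astro-like nuclei the lowest was CUS replicate 2, at 182 CPM.

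Partners of the complex were described from 6 lists of 40 genes: PSD-95 family scaffolds, AMPA receptor subunits, the TARP auxiliary subunits of AMPA receptors, Kv1 channels with their partners, 14-3-3 proteins and other ADAM genes. In bulk, 39 could be tested and 1 passed at a false discovery rate of 0.05, beside 3.29% of all 18394 genes, so the lists held no larger share of calls than the background. The lists too were chosen with earlier results of these data known, so a call in them is not independent support. Gria1, an AMPA receptor subunit, rose from 1212 ± 140.2 CPM (SD, n = 4) to 1581 ± 88.8 CPM (SD, n = 5), a log2 fold change of 0.38 (SE 0.08, edgeR adjusted p = 0.0240). Without a single mouse its adjusted p ran from 0.00272 (without control replicate 3) to 0.0705 (without CUS replicate 5), and it did not pass without control replicate 2, CUS replicate 4 or CUS replicate 5. Median log2 fold changes in bulk were 0.03 for the 4 scaffolds, 0.03 for the 4 AMPA subunits, 0.08 for the 6 TARPs, 0.07 for the 10 Kv1 genes, -0.07 for the 7 14-3-3 genes and -0.02 for 8 other ADAM genes, beside 0.01 over all genes.

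In nuclei, none of the partner genes passed the 0.2 threshold of edgeR's quasi-likelihood test, beside the 0.0199%, 1.02% and 0.596% of all genes given above. Over all nuclei 4 of 22 had an unadjusted p under 0.05, beside 402 of 5018 genes. In Ex_L2/3-like nuclei this was 3 of 23, beside 621 of 5377 genes, and in Ex_L4-like nuclei 4 of 23, beside 385 of 3858. In Ex_L2/3-like nuclei the median log2 fold change was 0.04 for scaffolds, -0.04 for AMPA subunits, 0.0073 for TARPs, 0.09 for Kv1 genes, 0.20 for 14-3-3 genes and -0.18 for the 3 other ADAM genes tested, 2 of which were negative, beside 0.01 over all genes.

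Some of these genes overlap other annotated genes in GENCODE vM21. On the same strand, Adam22 overlaps Gm42490 (2064 bases) and Gm24196 (110 bases), Lgi2 overlaps Gm43686 (2439 bases) and Lgi1 overlaps AC116871.2 (274 bases), and counts there can hold reads of either gene. On the opposite strand, Lgi4 overlaps Fxyd3 (2764 bases), Lgi1 overlaps Gm42723 (12132 bases), Lgi2 overlaps Gm43685 (1249 bases), Adam22 overlaps Gm21759 (1828 bases) and Gm23993 (144 bases), and Adam23 overlaps the small nuclear RNA gene Gm22281 (103 bases). Per the study's methods, nuclei counts took only reads on the strand of the gene, and bulk libraries were stranded, but the strand setting of the bulk counting is not given in the sources used here. Adam11 and Lgi3 overlap no other gene there.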

How the data were processed

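Bulk nuclear RNA was sequenced as stranded total RNA, and the authors aligned it with STAR to mm10 and deposited read counts per gene. The annotation release and the use of introns in bulk are not given in the sources used here. For nuclei, the authors deposited UMI counts per gene and barcode, exonic and intronic reads together. The deposited counts were used unchanged. Nuclei with 600 to 5000 genes and under 5% mitochondrial UMIs numbered 31486, of which 4788 (15.2%) with a doublet score over 0.2 (scanpy 1.11.5) were removed, leaving fewer than the study retained. They were clustered with Seurat 5.3.0, classes were named from marker lists, and UMIs were summed by mouse and class. CPM values are per 1e6 of all counts of the tissue or class, with TMM factors scaling between mice. Marker sums within a class and the values behind the like patterns had no TMM scaling.

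Differences were fitted with edgeR 4.0.16 (quasi-likelihood, TMM, Benjamini-Hochberg over all genes tested) in R 4.3.3. The threshold was 0.05 in bulk, after filterByExpr, and 0.2 within each class of over 200 nuclei, for genes whose UMIs exceeded 10% of the nuclei. DESeq2 1.42.0 and other settings were alternatives. The fits were also run on simulated counts with known changes, and the outcome is not given here. Named were all members, partner genes past the threshold and the 3 genes most like each member among those with at least 10 CPM in a class. The members and lists were chosen with earlier results of these data known. Bulk totals were 26188825 to 30525015 reads and nuclei totals 4699542 to 12477099 UMIs a mouse.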

Additional observations from a re-analysis of the deposited data

Results flagged for a closer look

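Lgi4 in bulk was 6.26 CPM in CUS replicate 4, below the other CUS mice at 7.77 to 8.13 CPM. Over all nuclei Lgi4 was 12.5 CPM in CUS replicate 1, above the other CUS mice at 5.10 to 6.01 CPM. That mouse had 279 Astro-like nuclei among 3319 kept, the other CUS mice 94 of 2908, 115 of 3040 and 163 of 4102, and 57 of its 98 Lgi4 UMIs were in Astro-like nuclei. The part of this in the Lgi4 value was not tested. Adam23 in Inh_Pv-like nuclei was 199 CPM in CUS replicate 1, below the other CUS mice at 283 to 297 CPM. Each of these 3 values, from 2 mice (both nuclei values from CUS replicate 1), lay far from the rest of its group by Dixon's criterion, out of 56 groups of values examined, and chance alone marks about 1 group in 20.

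The CUS effect on Adam23 in Ex_L2/3-like nuclei minus that in Inh_Pv-like nuclei was -0.57 on the log2 scale. It was past the threshold of the test of that difference, with p adjusted within this pair of classes alone. Lgi4 in Astro-like nuclei had a log2 fold change of 0.638, every CUS mouse being above every control mouse, whereas in bulk it was -0.34, every CUS mouse being below every control mouse. The mice, regions and ages differ between the assays, and this difference was not tested.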

How the results depend on the processing

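For 24 results and 375 values under alternatives, 321 kept their direction and side of the threshold, 28 lost the threshold, 16 gained it and 10 turned direction. The cause of these changes was not tested. No share of all genes past the threshold is given for the alternatives. The counts of members below are therefore not read as results about the members. In bulk, the contrast known when the members were chosen, counts of calls carry no weight as support: 1 member passed the threshold of 0.05 in the fit as designed, 2 without TMM factors, 3 with DESeq2, 2 with the likelihood ratio test, and 0 to 4 without a single mouse (4 without control replicate 3). Over all nuclei the count was 0, and 0 to 2 without a single mouse (2 without CUS replicate 2). In Ex_L2/3-like nuclei it was 1, against 2 with the likelihood ratio test, 2 at clustering resolution 1.5, 2 with a higher minimum of genes per nucleus (chosen after seeing the data for this class), and 0 to 3 without a single mouse (3 without CUS replicate 2). Over the classes it was 2, against 0 with adjustment over all classes together and 0 to 5 without a single mouse (5 without CUS replicate 2, 0 without control replicate 2 or CUS replicate 3).

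The correlations of same-numbered mice were 0.033, 0.23, 0.036 and 0.13 in bulk and 0.36, -0.066, 0.40 and -0.45 in nuclei. No correlations of differently numbered mice are given beside them, so they do not settle whether replicate numbers pair the mice. With the replicate block, 0 members passed in bulk, 0 over all nuclei, 2 in Ex_L2/3-like nuclei and 3 over classes, and Gria1 did not pass (edgeR adjusted p = 0.0577). These counts too stand without a share of all genes passing under the block.

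Small differences turned sign. Without a single mouse, the log2 fold change ran from -0.039 to 0.011 for Adam22 in bulk, from -0.046 to 0.14 for Lgi3 in bulk, from -0.11 to 0.040 for Lgi1 in Ex_L2/3-like nuclei and from -0.013 to 0.074 for Adam22 in Ex_L4-like nuclei, where resolution 0.6 gave -0.076. Depth limited Lgi4 and Adam11, which were under the filter over all nuclei.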
